A study of Rattus norvegicus with 3 samples.

Results

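The genes described here encode the coats that bud transport vesicles and the SNARE proteins that fuse them, together with ARF GTPases, p24 cargo receptors, golgins and the protein channel of the endoplasmic reticulum (ER). They were chosen by gene name alone: names starting with Sec, Arf, Stx, Vamp or Snap and a digit, names starting with Tmed or Golg, and 10 listed coatomer and Golgi SNARE genes. The rule found 73 genes on 109 probes, of 35494 gene names on 41012 probes in all. Each array compared rat induced pluripotent stem (iPS) cells of line M13, labelled with Cy3, with an RNA named mix1, labelled with Cy5. The iPS cells were untreated and grown on irradiated mouse embryonic fibroblast feeders. Mix1 was the adult control, a mixture of RNA from 2 adult rat cultures, of primary ear fibroblasts and of bone marrow cells. There were 3 arrays, 1 for each of 3 iPS M13 samples, all on 1 slide. Nothing in the labels ties the 3 samples to separate cultures, and the p-values therefore reflect variation among these samples alone, which may be technical. Mix1 counts as 1 control sample whose own spread is left out. No dye was swapped, so dye and cell type cannot be told apart. M13 is 1 line, so the values describe that line.

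Proteins bound for the cell surface enter the ER through the Sec61 channel, leave it in vesicles coated with COPII, and return from the Golgi in vesicles coated with COPI. ARF GTPases recruit COPI, p24 proteins gather cargo into both kinds of vesicle, golgins catch incoming vesicles at the Golgi, and SNAREs pair across the gap to fuse the membranes. Fibroblasts are known for heavy secretion of collagen and other matrix proteins, and cells of the myeloid lineage for regulated release of granules.

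Of the 73 genes, 71 had a probe well above local background in the same colour on all 3 arrays. Both RNAs were above background on every array for 62 of them. A gene was called when limma's Benjamini-Hochberg adjusted p was under 0.05 and the level differed at least 2-fold. By that rule 28 of the 71 genes, or 39.4%, had a lower level in iPS M13 than in mix1, where 25.5% of all 20342 measured genes were lower. Only 3 genes, or 4.23%, were higher, against 18.7% of all genes: the endocytic adaptor Snap91, the neuronal SNARE Snap25 and the p24 gene Tmed6. The adjusted p alone was passed by 69 of the 71 genes and by 96.1% of all genes, so the 2-fold size, not the p, set most calls. Their median log2 ratio (iPS M13 over mix1) was -0.87, -0.82 and -0.86 on arrays 1, 2 and 3, and -0.84 over the genes' means, against -0.03 for all genes. At least 4-fold lower were 7 genes, where 13.3% of all genes were. A negative ratio was seen for 59 genes and a positive one for 12. The 3 arrays gave the same sign for 70 of the 71 genes, and the median SD between arrays was 0.02.

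The size of this difference depended on how each array was centred. Loess normalization, used for every value below unless another is named, takes off a dye trend that follows brightness. The genes here were brighter than most, with a median iPS M13 log2 signal of 12.01 against 10.08 for all genes. Centring each array on its median in place of loess moved the median of all genes up by 0.60, and then 12 of the 71 genes were lower, or 16.9% against 17.8% of all genes, and 9 were higher, or 12.7% against 36.4% of all genes. With the scanner software's processed signals the median of all genes moved up by 0.32, and 20 genes (28.2%) were lower and 6 (8.45%) higher, against 23.8% and 31.1% of all genes. With no normalization within arrays 12 were lower and 8 higher, against 18.4% and 34.4% of all genes. Where both RNAs had to be above background, 26 of 62 genes were lower and 1 higher, against 22% and 16.5% of all genes. The median of the 71 genes lay below that of all genes by 0.81 with loess, 0.73 with median centring and 0.90 with processed signals. Thus the share of higher calls and the median lay below those of all genes under each of these scalings, while the share of lower calls did not exceed that of all genes under median centring or without normalization within arrays. In bulk RNA, fewer cells of a type and less RNA per cell cannot be told apart.

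Marker genes were read to check the labelled cell types. All 5 pluripotency markers were higher in iPS M13, among them Epcam at a log2 ratio of 4.71 ± 0.13 (SD, n = 3) and Dnmt3b at 4.10 ± 0.08. They spanned log2 signals of 8.78 to 13.44 in iPS M13 and 7.47 to 9.34 in mix1. Pou5f1 was not above background in mix1 and was at least 2.48-fold higher in iPS M13. Mix1 was above background on 2 arrays for Epcam. All 7 fibroblast markers were lower, from Thy1 at -5.14 to Col3a1 at -10.79, and so were all 7 measured marrow and myeloid markers, from Ptprc at -1.11 to Cd14 at -7.49. The fibroblast markers spanned log2 signals of 6.53 to 12.87 in iPS M13 and 11.67 to 18.52 in mix1, and Thy1 was not above background in iPS M13. The myeloid markers spanned 6.81 to 10.26 and 7.92 to 16.52, with Ptprc not above background in iPS M13. The part of these cell types in each gene below was not tested.

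COPII, the coat of vesicles leaving the ER, had 8 measured genes. Of these 4 were lower and none higher, against 25.5% and 18.7% of all genes. The inner coat pairs Sec23, which activates the GTPase Sar1, with Sec24, which binds cargo. Sec23a gave log2 ratios of -1.89, -1.85 and -1.89 on the 3 arrays, 3.67-fold lower in iPS M13 (mean -1.88 ± 0.02, adjusted p = 1.62e-06 in limma). Its paralogue Sec23b gave -0.74, -0.75 and -0.76 and was not called. On the probes used Sec23a lay 1.13 ± 0.03 below Sec23b on the log2 scale, a 2.18-fold gap. Other kept Sec23a probes had means of -1.91 and -1.21, the latter with iPS M13 above background on 2 arrays. The size of the gap thus depended on the probe. Over the other processing settings Sec23a minus Sec23b ran from -1.42 to -0.92.

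The cargo-binding Sec24 genes split further. Sec24d gave -2.61, -2.43 and -2.53, 5.75-fold lower (limma adjusted p = 5.91e-06), with iPS M13 above background on 2 of the 3 arrays. On their brightest probes Sec24a gave 0.19, 0.28 and 0.16, and Sec24b gave 0.36, 0.35 and 0.31, slightly above zero and under 2-fold. Other kept probes had means of -0.14 and 0.07 for Sec24a and -0.27 for Sec24b, so the sign depended on the probe. Sec24d thus stood apart from both. It lay 2.86 ± 0.10 below the brightest probe of Sec24b, a 7.28-fold gap in a pair chosen after its values were seen. With median centring Sec24a and Sec24b read 1.06 and 1.09 and were called higher, while Sec24d at -2.07 was still lower. Sec24a and Sec24b differed from each other by only 0.13 ± 0.05, with a sign that turned in another setting.

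The outer COPII cage is built of Sec13 and Sec31. Sec31a gave -1.65, -1.65 and -1.66, 3.15-fold lower, the closest agreement between arrays of any coat gene named here. Sec13, which also serves in the nuclear pore, gave -0.74, -0.73 and -0.79 and was not called. Sec23ip, a Sec23-binding protein, sat just past the threshold at -1.02, -1.02 and -1.01. The calls of Sec31a and Sec23ip ended with median centring, where their values were -0.80 and -0.18, while that of Sec23a held at -1.104.

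COPI, the coat of vesicles that return from the Golgi to the ER, had 7 measured genes. Of these 5 were lower and none higher, against 25.5% and 18.7% of all genes. One subunit stood far from the rest. Copz2, a second form of the zeta subunit, gave -6.51, -6.50 and -6.61, 93.1-fold lower in iPS M13 (mean -6.54 ± 0.06, limma adjusted p = 6.68e-07). Its log2 signal was 8.60, 8.45 and 8.53 in iPS M13 and 15.11, 14.95 and 15.14 in mix1. Another Copz2 probe gave -7.79, -7.58 and -7.92. These probes lie at chr10:85636464-85636523 and chr10:85627246-85627305 of build rn3. The common form of the subunit, Copz1, gave -0.87, -0.90 and -0.85 and was not called. Copz1 therefore lay 5.67 ± 0.09 above Copz2, a 50.8-fold gap that ranged from 5.53 to 6.28 in log2 over the other processing settings.

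The other coatomer subunits were nearer to zero than Copz2. Cope, the epsilon subunit, was 4.42-fold lower, with -2.13, -2.18 and -2.12, below the rest of them on every array. Copa, the alpha subunit, gave -1.29, -1.24 and -1.21, a 2.37-fold lower level. The beta subunits were nearly equal on the probes used: Copb1 gave -1.08, -1.07 and -1.08, and Copb2 gave -1.01, -1.04 and -1.03. Another Copb2 probe had a mean of -0.55, short of 2-fold, so the near equality and the call of Copb2 depended on the probe. Copg1, the gamma subunit, had a mean of -0.94 and was just short of 2-fold. Under median centring Cope at -1.58 and Copz2 at -5.69 were still lower, while Copa, Copb1 and Copb2 fell short of 2-fold at -0.54, -0.37 and -0.45.

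The p24 family of cargo receptors had genes called on both sides of zero, 2 of 8 lower and 1 higher. The share of lower genes was near the 25.5% of all genes, and 18.7% of all genes were higher. Tmed3 gave -3.26, -3.30 and -3.30, 9.76-fold lower (limma adjusted p = 6.9e-07), and Tmed9 gave -2.36, -2.40 and -2.36, 5.18-fold lower. Both kept their calls in every processing setting. Tmed2 and Tmed10, which travel together in both coats, gave means of only -0.46 ± 0.02 and -0.41 ± 0.004. On the arrays Tmed2 read -0.49, -0.44 and -0.45, and Tmed10 read -0.40, -0.40 and -0.41. Tmed7, close kin of Tmed3, gave -0.74, -0.71 and -0.72 on its brightest probe, so Tmed3 lay 2.57 ± 0.04 below it, a 5.92-fold gap. Other kept Tmed7 probes had means of -0.13 and -0.29, so the size of the gap depended on the probe.

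Other p24 genes lay on the opposite side. Tmed6 gave log2 ratios of 1.66, 1.39 and 1.75, but on none of the arrays was mix1 well above background. Its level in iPS M13 was therefore at least 2.24-fold higher. The bound on each array used the lowest mix1 signal that counted as above background or the gene's own, whichever was higher. On array 2 that lowest signal was only 4.72 in log2, so the gene's own 6.97 was used there. Tmed6 passed the filter through iPS M13 alone, and its limma adjusted p of 1.38e-04 belongs to the fitted ratio, not to the bound. Tmed5 gave 0.67, 0.68 and 0.68 on its brighter probe and a mean of 1.67 ± 0.15 on another, so the probes agreed in sign and not in size. Tmed4 was near zero at -0.07 ± 0.01. The class median of -0.43 turned positive, to 0.35, with median centring.

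**Figure D1:**
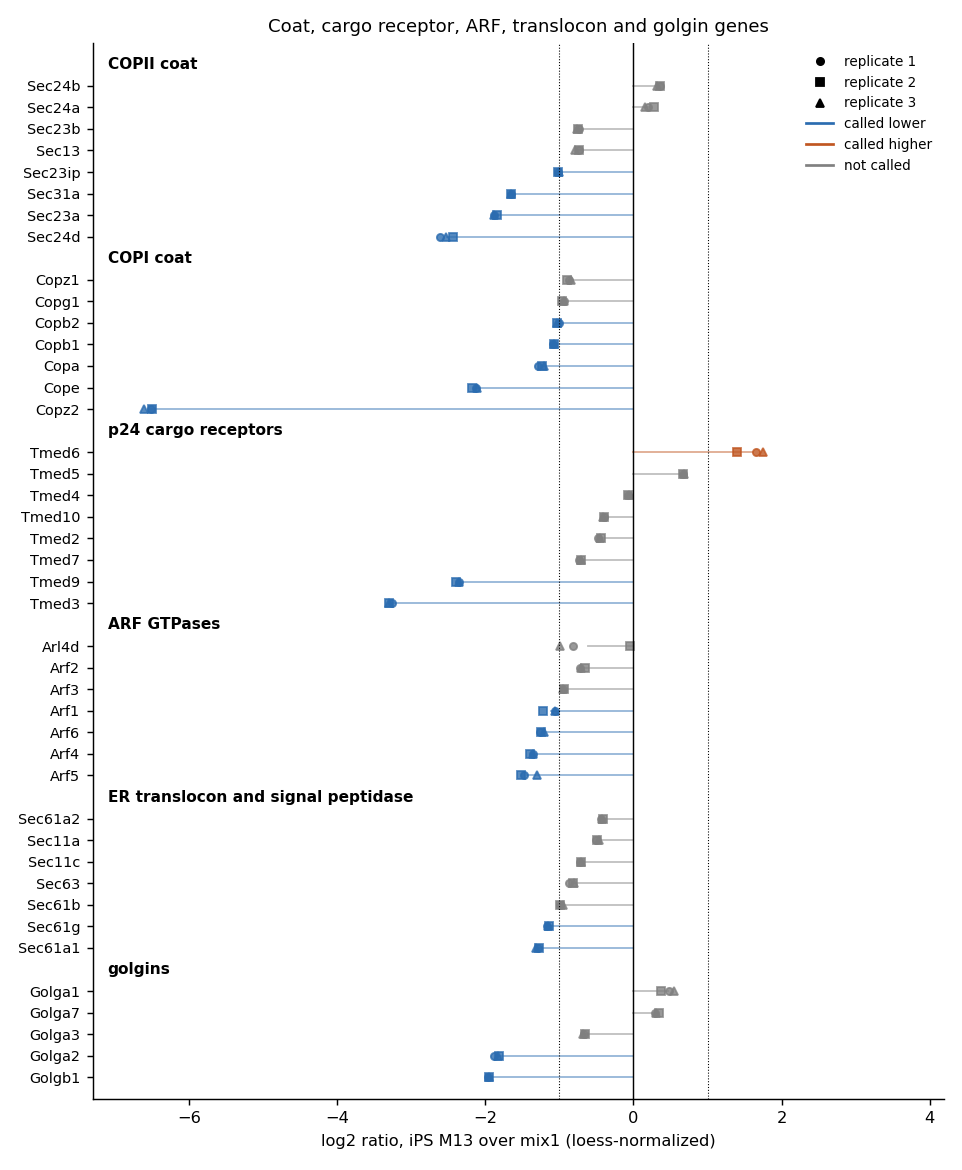
Log2 ratios of iPS M13 over mix1 for each measured coat, p24, ARF, translocon and golgin gene. Symbols are the 3 arrays, blue lines and symbols mark genes called lower, orange called higher and grey not called, and dotted lines mark 2-fold. Copz2 near -6.5 lies far from the other COPI genes, and Tmed3 and Tmed9 lie apart from the other p24 genes.

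ARF GTPases recruit COPI and other coats to membranes. Of the 7 measured genes 4 were lower and none higher, against 25.5% and 18.7% of all genes. Arf5 gave -1.48, -1.52 and -1.31, 2.71-fold lower, and was called in every setting. Arf4 gave -1.36, -1.40 and -1.36. Arf1, the main recruiter of COPI, gave -1.06, -1.23 and -1.06, and Arf6, which works at the plasma membrane, gave -1.26, -1.25 and -1.21. Another Arf1 probe gave a mean of -0.73 ± 0.01, and Arf1 was not called with the mean over probes (-0.92). Arf3 at -0.94 and Arf2 at -0.70 were not called. With median centring or no normalization within arrays only Arf5 was lower, and with processed signals Arf4 and Arf5 were. The ARF-like gene Arl4d varied more than any other member, with -0.82, -0.05 and -0.99, was above background in iPS M13 on 1 array, and did not pass the adjusted p in limma (0.0552). Differences between Arf1 and Arf6, Arf1 and Arf3, and Arf4 and Arf5 were at most 0.17 in log2 with loess. Over the other settings Arf1 minus Arf6 ran from -0.62 to 0.32, Arf1 minus Arf3 from -0.47 to 0.06 and Arf4 minus Arf5 from -0.31 to 0.12, so each changed sign. ARF genes are similar in sequence, and whether their probes bind each other's RNA was not tested.

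Of the genes of protein entry into the ER, 2 of 7 measured were lower and none higher, near the 25.5% of all genes that were lower. Sec61a1, the pore-forming subunit, gave -1.29, -1.27 and -1.31, and Sec61g gave -1.17, -1.15 and -1.15. Sec61b missed the 2-fold line narrowly at -0.998, -0.997 and -0.958. Sec61a2, the second form of the pore subunit, had a mean of -0.43 ± 0.01, which put Sec61a1 below it by 0.86 ± 0.02. Sec63, which helps feed the channel, gave a mean of -0.83 on its brightest probe and -0.30 on another. The signal peptidase subunits Sec11a and Sec11c gave -0.49 and -0.72. None of the 7 was called with median centring or with processed signals, where the class medians were -0.001 and -0.51. The 3 probes named Sec61g lie on rn3 chromosomes 14, 9 and 5, so copies of this gene may share its signal. Those on chromosomes 14 and 9 gave -1.16 and -1.04, and the third was not above background.

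Of 5 measured golgins 2 were lower and none higher, against 25.5% and 18.7% of all genes. Golga2 (GM130), the cis-Golgi tether, gave -1.88, -1.82 and -1.83, 3.59-fold lower. Golgb1 (giantin) gave -1.96, -1.95 and -1.96, 3.88-fold lower (limma adjusted p = 1.03e-06). Both were called in every setting. Golga3 gave a mean of -0.67 ± 0.02 and was not called, 1.18 ± 0.03 above Golga2. Golga1 (golgin-97), of the trans-Golgi, gave 0.48, 0.38 and 0.55, with mix1 above background on 2 arrays. Golga7, a palmitoyltransferase partner that carries the golgin name, gave 0.31 ± 0.03.

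Promoters of these genes were read for letters tied to secretory stress programs, because many of the coat and Golgi genes lay on the same side of zero. RefSeq windows of build GRCr8 were found for 65 of the 73 genes; Golga7, Sec24d, Sec61a1, Sec61a2, Snap25, Snap91 and Vamp3 were among those with no entry used here. The 250 bases before each gene's start were searched on both strands for TGACGTG, the core of the unfolded protein response element, and ACGTGGC, the core of the Golgi stress response element. These motifs overlap in TGACGTGGC. The letters TGACGTG were in 12.3% of the 65 promoters, against 1.54% of all 33469 promoters and 1.55% of 21851 protein-coding ones. ACGTGGC was in 13 of the 65, against 2.0% of all and 2.21% of protein-coding promoters. Among the 26 called lower, 5 held TGACGTG (19.2%) and 8 held ACGTGGC (30.8%), and among 38 measured genes not called lower the counts were 3 (7.89%) and 5 (13.2%). This split uses the calls with loess. Of the lower genes with a match, only Arf5, Sec23a and Tmed9 were called in every processing setting. The longer ER stress response element was in none of the 65 and in 0.0657% of all promoters. The genes' promoters were also richer in G and C, with a median of 60.8% against 54.0% for protein-coding promoters, and the part of that in the shares was not tested. A match describes letters in a window and is neither a binding site nor a cause. The windows of 60 bases below, on the gene's own strand, are shown because they hold these letters (capitals); of the 16 genes with a match, 9 were called lower and 7 were not. Shown are 5 called lower (Sec23a, Tmed9, Arf1, Arf4 and Stx5) and 4 not called (Tmed2, Stx18, Golga1 and Golga3). Sec23a lies at chr6:82440956-82441015, Tmed9 at chr17:9039312-9039371, Arf1 at chr10:44513995-44514054, Arf4 at chr16:1903376-1903435, Stx5 at chr1:215066472-215066531, Tmed2 at chr12:37722632-37722691, Stx18 at chr14:76973727-76973786, Golga1 at chr3:43222433-43222492 and Golga3 at chr12:52160232-52160291. Arf4 and Stx5 are on the plus strand and the others on the minus strand.
Sec23a: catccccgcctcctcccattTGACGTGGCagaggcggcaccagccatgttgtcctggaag
Tmed9: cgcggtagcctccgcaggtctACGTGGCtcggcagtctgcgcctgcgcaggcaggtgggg
Arf1: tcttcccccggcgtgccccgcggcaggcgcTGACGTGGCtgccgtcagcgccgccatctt
Arf4: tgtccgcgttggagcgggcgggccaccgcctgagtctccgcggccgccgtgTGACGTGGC
Stx5: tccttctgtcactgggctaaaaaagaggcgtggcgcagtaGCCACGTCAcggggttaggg
Tmed2: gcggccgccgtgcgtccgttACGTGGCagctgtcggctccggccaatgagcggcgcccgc
Stx18: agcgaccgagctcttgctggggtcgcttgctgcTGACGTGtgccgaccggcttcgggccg
Golga1: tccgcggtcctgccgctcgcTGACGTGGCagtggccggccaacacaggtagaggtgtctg
Golga3: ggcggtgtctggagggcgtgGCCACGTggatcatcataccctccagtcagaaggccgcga

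The full overlap TGACGTGGC, or its complement, is present in the windows of Sec23a, Arf1, Arf4, Stx5 and Golga1. The first 4 of these were called lower with loess, and of them only Sec23a was called in every processing setting. Golga1, with a positive ratio, carries the same letters. The promoters of Copz2, Tmed3 and Vamp8, among the genes farthest below zero, held neither motif in the 250 bases, which says only that these letters are not there.

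Genes classed by name as SNAREs of the ER and Golgi had a median of -0.45, with 2 of 7 lower and none higher. Whether each acts as a SNARE was not examined. The share of lower genes was near the 25.5% of all genes, and 18.7% of all genes were higher. Stx5, the syntaxin of ER-to-Golgi fusion, gave -1.30, -1.35 and -1.28, 2.48-fold lower. Sec22a gave -1.20, -1.18 and -1.24. Sec22b, which pairs with Stx5, gave -0.83, -0.81 and -0.86 and was not called. Stx5's other partners moved less still. Bet1 gave -0.44, -0.40 and -0.41, and Gosr2 gave -0.41, -0.45 and -0.48. Gosr1 at 0.22 ± 0.01 and Stx18, an ER syntaxin of the return route, at 0.30 ± 0.03 were slightly positive on every array. The genes of 1 fusion complex (Stx5, Gosr2, Bet1 and Sec22b) therefore spanned 0.42 to 1.31 below zero. With median centring Stx18 was called higher at 1.10, neither Stx5 nor Sec22a was called, and the class median turned to 0.41.

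SNAREs of endosomes and the trans-Golgi had 3 of 8 measured genes lower and none higher, against 25.5% and 18.7% of all genes. Vamp8, which fuses late endosomes, autophagosomes and secretory granules, gave -3.60, -3.56 and -3.57, 11.9-fold lower (mean -3.58 ± 0.02, limma adjusted p = 6.54e-07). Its log2 signal was 11.94, 11.87 and 11.89 in iPS M13 and 15.54, 15.43 and 15.47 in mix1, so it was well measured in both RNAs. Stx6 gave -1.541, -1.502 and -1.521, and Stx12, of recycling endosomes, gave -1.45, -1.45 and -1.47. Other probes were nearer to zero, with means of -0.78 for Stx6 and -0.92 and -1.005 for Stx12. With the mean over probes the class still had 3 lower genes. Stx7 and Stx8, which act with Vamp8 at late endosomes, had means of -0.84 and -0.78 and were not called. Stx17, the autophagosome syntaxin that also pairs with Vamp8, was at -0.26, and Stx16 at -0.03 did not pass the adjusted p in limma (0.25). The class thus ran from near zero to 11.9-fold lower, and the median of -0.81 became 0.02 with median centring.

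The class of plasma membrane SNAREs, also set by name, had 10 measured genes of 12, with 4 lower and 1 higher, against 25.5% and 18.7% of all genes. Vamp5, known from muscle, gave -2.52, -2.54 and -2.51, 5.75-fold lower, and held its call in every setting. Stx11, which serves granule release in immune cells, gave -1.30, -1.34 and -1.36. Stx3 gave -1.44, -1.42 and -1.35, with iPS M13 above background on 1 array. Stx4, the widely used plasma membrane syntaxin, gave -1.24, -1.22 and -1.21. These 4 genes agreed closely across arrays, with SDs of 0.05 or less.

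The vesicle partners of Stx4 were near the 2-fold line. Vamp3 gave -0.96, -0.96 and -0.98 and was not called. Vamp2 gave -0.85, -0.79 and -0.83 on its brightest probe and a mean of -1.32 ± 0.01 on another, and was called lower, at -1.07, only with the mean over probes. Snap23, the widely used partner at the plasma membrane, gave -0.35, -0.36 and -0.36, and Snap29 gave a mean of -0.96. Vamp1 differed between its probes, with a mean of -0.26 ± 0.04 on the brighter and -2.46 ± 0.12 on the other, where iPS M13 was not above background, so no single value stands for it.

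Snap25, the neuronal relative of Snap23, gave 1.97, 1.53 and 1.89. Its log2 signal was 8.74, 8.67 and 8.75 in iPS M13, while on all 3 arrays mix1 was not well above background. Snap25 was thus at least 2.85-fold higher in iPS M13. It passed the filter through iPS M13 alone, and its limma adjusted p of 1.91e-04 belongs to the fitted ratio, not to the bound. Snap91 (AP180), which is a clathrin assembly protein of synapses and no SNARE, was caught by its name. It gave 3.42, 3.23 and 3.33, 10.0-fold higher (mean 3.33 ± 0.10, limma adjusted p = 3.58e-06), with both RNAs above background on all arrays. Of 6 measured neuron markers, a list that includes Snap25, 5 were higher in iPS M13, with log2 ratios of 3.14 for Nefm, 2.78 for Nefl and 2.58 for Stmn2, and Tubb3 at 0.81 was not called. The neuron markers spanned log2 signals of 8.23 to 15.51 in iPS M13 and 6.91 to 13.69 in mix1, with Map2 and Snap25 not above background in mix1. Their part in the values of Snap25 and Snap91 was not tested.

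The remaining genes were not called. Exoc1, a subunit of the exocyst that tethers vesicles at the plasma membrane, gave 0.30, 0.29 and 0.32. The lipid-binding Sec14l2 was above background in mix1 only, at least 1.5-fold lower in iPS M13, and Sec14l3 was above background in iPS M13 only, at least 1.3-fold higher.

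**Figure D2:**
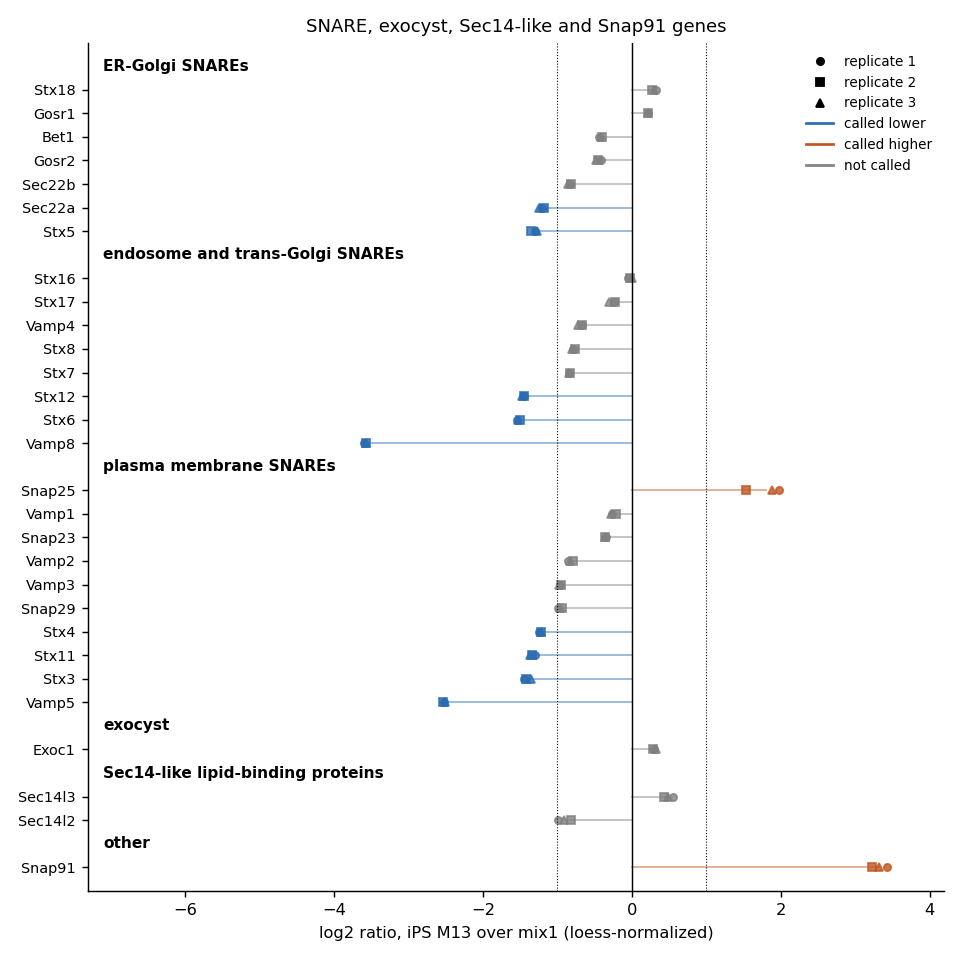
Log2 ratios of iPS M13 over mix1 for each measured SNARE gene by the step it serves, with the exocyst, Sec14-like and Snap91 genes. Symbols are the 3 arrays, blue marks genes called lower, orange called higher and grey not called, and dotted lines mark 2-fold. Vamp8 lies apart from the other endosomal SNAREs, and Snap25 and Snap91 are the genes called higher.

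Differences between paralogues within an array are free of any constant shift of that array. The largest separated Copz1 from Copz2, Sec24b from Sec24d, and Tmed7 from Tmed3, as above. Vamp4 lay 1.84 ± 0.04 above Vamp5, a 3.57-fold gap, and Snap25 lay 2.15 ± 0.23 above Snap23 as fitted. Tmed5 lay 1.40 ± 0.01 above Tmed7 on their brightest probes, in a pair chosen after its values were seen. Among smaller gaps, those of Gosr1 over Gosr2 (0.66 ± 0.04) and Stx7 over Stx12 (0.62 ± 0.01) had 1 sign in every setting, as had Sec61a2 over Sec61a1, Sec11a over Sec11c, Stx4 over Stx3 and Tmed10 over Tmed2. The gaps between Sec22a and Sec22b, Vamp2 and Vamp3, Vamp1 and Vamp2, and Copb1 and Copb2 changed sign with the processing. Each of these differences was larger than its SD over arrays except that of Arf4 and Arf5 (0.07 ± 0.10), but a two-sided sign-flip test over 3 arrays, taken exactly, gives no p smaller than 0.25.

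**Figure D3:**
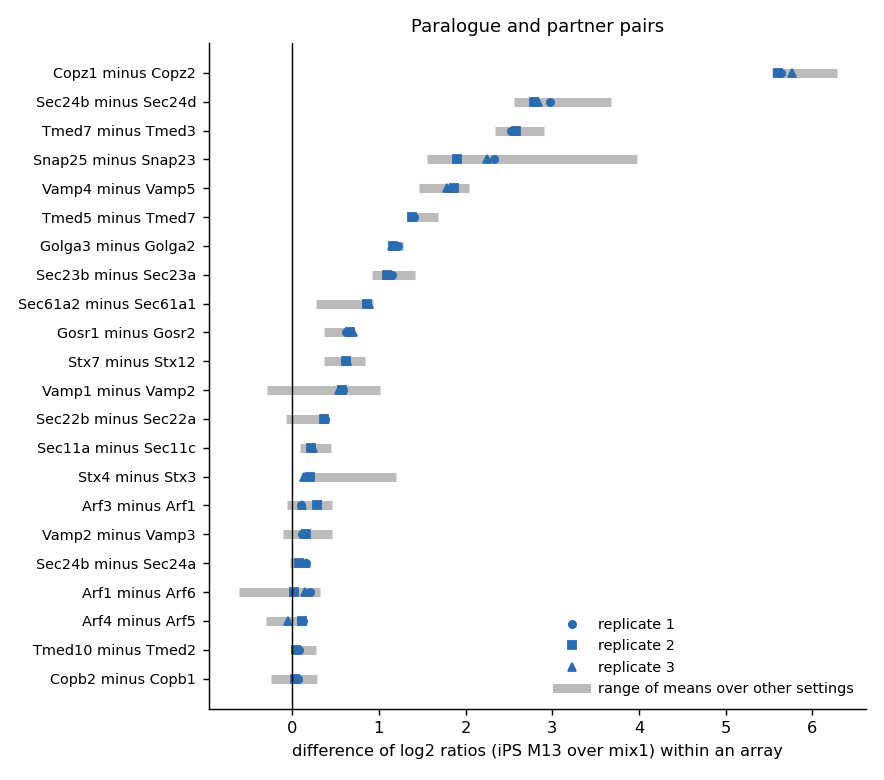
Difference of log2 ratios (iPS M13 over mix1) between the 2 genes of each pair, taken within an array and turned so that the mean is positive. Symbols are the 3 arrays and the grey bar is the range of the mean over the other processing settings. The bar of Copz1 and Copz2 stays above 5.5, and the bars of 8 of the smaller gaps cross zero.

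Calls of single genes differed in how far they depended on the processing. Of the 28 genes called lower, 12 were lower in every setting that measured them: Arf5, Cope, Copz2, Golga2, Golgb1, Sec23a, Sec24d, Stx3, Tmed3, Tmed9, Vamp5 and Vamp8. All 3 genes called higher were higher in every setting that measured them. Snap25, Tmed6, Sec24d and Stx3 were not measured where both RNAs had to be above background. For Snap25 and Tmed6 all other settings read the same probe, with mix1 not above background, so they are a weak check of those calls. The other 16 lower genes had a mean of 1.01 to 1.65 below zero and lost their call in at least 1 setting. No called gene changed sign in any setting. Another 11 genes lay between -1 and -0.8, just short of the line, and 3 lower genes lay between -1.1 and -1.

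**Figure D4:**
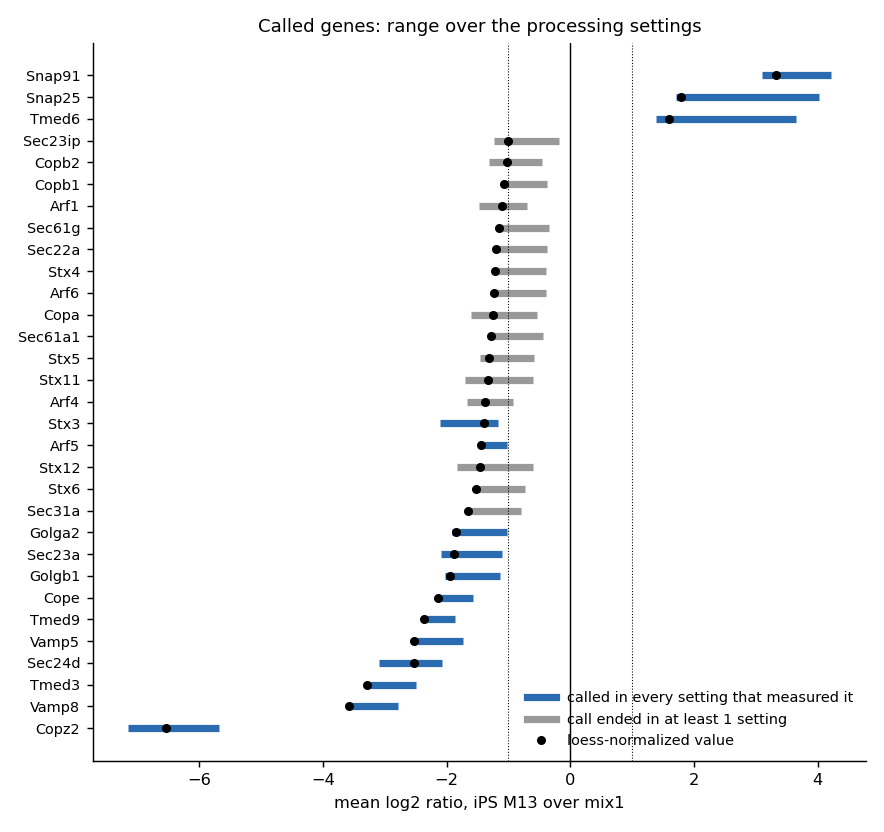
Mean log2 ratio (iPS M13 over mix1) of the 31 called genes (black points) with the range over the processing settings (bars). Blue bars mark genes called in every setting that measured them and grey bars genes whose call ended in at least 1, and dotted lines mark 2-fold. No bar crosses zero, and the grey bars belong to genes between -1.01 and -1.65.

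Partner genes were read from lists of known helpers, in which only the exocyst gene Exoc1 is also a member. Their counts are to be read against the 25.5% of all genes called lower and 18.7% called higher, and no difference between lists was tested. COPII partners had 4 of 10 measured genes lower and 1 higher. The cargo receptors Ergic3 at -2.01, Surf4 at -1.84 and Lman1 at -1.22 and the coat GTPase Sar1a at -1.25 were lower, and Ergic2 at 1.81 ± 0.08 was higher. Of COPI and ARF partners, 7 of 15 were lower and none higher. All 3 KDEL receptors, which return ER residents in COPI vesicles, were among them: Kdelr1 at -2.19, Kdelr2 at -2.14 and Kdelr3 at -2.20, the last from 2 arrays. Arfgap1, which switches off Arf1, was at -2.23, while Arcn1, the delta subunit of the coatomer, was at -0.43 and Copg2, the second gamma subunit, at 0.47.

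The machinery that serves SNAREs had a share of lower genes near that of all genes. Of 19 measured SNARE partners 4 were lower and none higher, among them Use1 at -2.62 and Bet1l at -2.42, both SNAREs of the ER and Golgi, and the syntaxin-binding Stxbp2 at -1.25. The ATPase Nsf, which takes used SNARE complexes apart, was at 0.27 and was not called, and its adaptors Napa and Napg were at -0.96 and 0.58. Clathrin and its adaptors had 7 of 23 lower and none higher, among them 4 subunits of the endocytic adaptor AP2 (Ap2a2, Ap2b1, Ap2m1 and Ap2s1, from -1.16 to -1.71). Tethers had 5 of 25 lower and 1 higher, the exocyst subunit Exoc6 at 1.25. Within the exocyst, Exoc2, Exoc4, Exoc5 and the member Exoc1 were positive at 0.87, 0.50, 0.93 and 0.30 without a call. Exoc3 at -0.18 and Exoc8 at -0.96 were negative without a call, and Exoc7 was lower at -1.35.

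Of 14 listed genes of regulated exocytosis 7 were measured, of which 4 were higher and 2 lower. Rims2 at 1.94 and Unc13d at 1.42 were higher and Sv2a at -2.19 was lower, with both RNAs above background. The other 3 called genes were not above background in 1 RNA and have bounds only: Unc13b at least 2.31-fold higher, Syt4 at least 2.54-fold higher and Cplx2 at least 2.46-fold lower. Such genes passed the filter through the RNA where they are high. The list medians were -0.90 for COPII partners, -0.96 for COPI and ARF partners, -0.74 for SNARE partners, -0.75 for clathrin, -0.63 for tethers and 1.35 for regulated exocytosis. The medians of COPI and ARF partners and of regulated exocytosis are fitted values of genes with a bound only (Arfgap3 and Syt4). With median centring those of SNARE partners and tethers turned positive, to 0.05 and 0.17, and the others kept their sign.

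**Figure D5:**
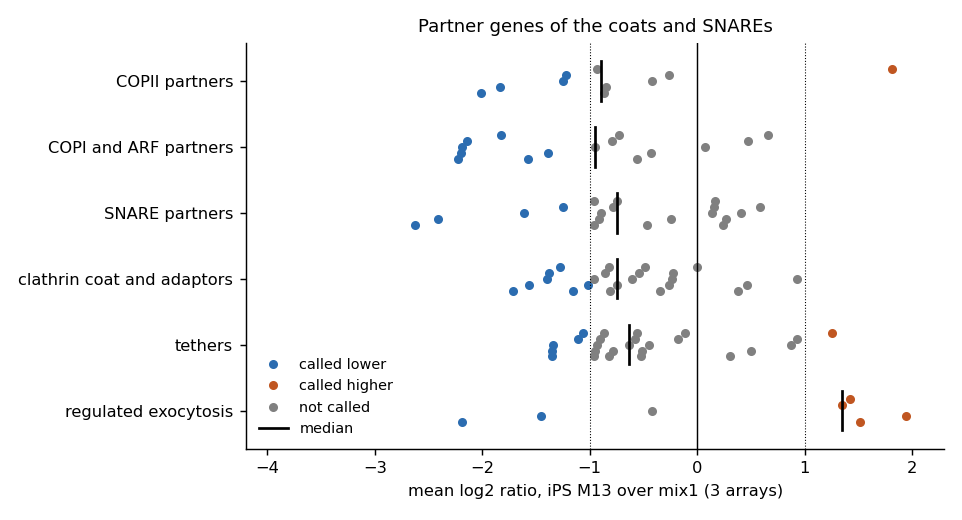
Mean log2 ratio over 3 arrays, iPS M13 against mix1, for each measured gene of the partner lists, spread vertically only for legibility. Blue points were called lower, orange higher and grey not called, the black bars are list medians and dotted lines mark 2-fold. The first 5 medians lie between -0.96 and -0.63, and that of regulated exocytosis lies at 1.35, the fitted value of Syt4, which has a bound only.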

How the data were processed

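RNA of 3 iPS M13 samples (Cy3) was hybridised against mix1 (Cy5) on 3 two-colour Agilent arrays of 41012 probes. Spot intensities were deposited as written by the scanner software, Agilent Feature Extraction 9.5.3.1 per the file headers, as mean signal and local background per channel. Its processed intensities were background-corrected and dye-normalized by that software, and its log10 ratios are Cy5 over Cy3 as the file headers give them. A value table from the authors, with scale and direction unstated, held log2 ratios of Cy3 over Cy5. This was read from its slope of -3.32 against the deposited log10 ratios. Its column medians were -0.0414, -0.0282 and -0.0286, and any centring by the authors is unstated. It gave the same counts and medians as the processed signals, so it is not a separate setting from them.

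Mean signals were corrected by normexp with offset 50 and normalized by loess within each array (limma 3.58.1, R 4.3.3), with control spots at weight 0 and outlier spots left out. A probe was kept if well above background in the same colour on all 3 arrays, and the brightest kept probe stood for a gene (20342 genes). Log2 ratios were tested against 0 with lmFit and eBayes and adjusted by Benjamini-Hochberg over all genes. Signals printed are after loess and Aquantile scaling. A gene not above background in 1 RNA has a bound only, and such bounds are open to dye bias without dye swaps. The fit was also run on simulated data with independent noise. Those data hold no dye, centring or shared mix1 effect, so the run cannot speak to such effects here. Median signals were 272, 291 and 289 for Cy3 and 228, 254 and 235 for Cy5, and across genes the arrays correlated at 0.997 to 0.998. All arrays share 1 slide and scan date, so no batch could be tested; their small number limits the precision.

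Names on the array were brought up to date with RefSeq tables, which matched all 73 members; 12 carry another symbol on the array. Probe positions are in rn3 per the file headers, and their place in exons or UTRs was not analysed here. Every member is counted, and some named items are not reported here; values on each array were printed for the leading called genes of a class and for a list of core genes. The members, classes, partner lists, motifs and tests were chosen with earlier results of these data known. Alternatives were other background corrections, scalings, filters, probe rules and a GC trend, the authors' table, and leaving out each array.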

Additional observations from a re-analysis of the deposited data

How the results depend on the processing

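Leaving out each array in turn left 28 genes lower and 3 higher, with medians from -0.861 to -0.837. The number of genes called higher was 6 with processed signals and with the authors' table, 9 with median centring, 8 with no within-array normalization and 1 when both RNAs had to be above background. Called lower were 12 with median centring and 12 with no within-array normalization. The median of the genes was -0.604 with processed signals and with the authors' table, -0.146 with median centring, -0.202 with no within-array normalization, -0.908 with both RNAs above background, -0.874 with the mean over probes and -0.861 with the GC trend taken off. Over all genes, 6319 were higher with processed signals and with the authors' table, 7400 with median centring and 7005 with no within-array normalization, against 3808 with loess. The share of all calls that were higher was 42.3% with loess, 67.2% with median centring, 65.1% with no within-array normalization and 56.6% with processed signals. The causes were not tested. No result reversed among called genes; uncalled genes changed sign 19 times with median centring, 15 with no normalization, 7 with the GC trend off and 4 with processed signals. Probes of a gene lay within 0.5 in log2 for 18 of 27 genes with more than 1 kept probe. Dim probes limit Stx3, Sec24d and Arl4d. Each ratio already pairs iPS M13 with mix1 on its own array, and with 1 group no further replicate block could be fitted.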
